A study of Mus musculus with 9 samples.

Results

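The genes described here are Trp53, which encodes the tumour suppressor p53, and 31 genes known as p53 targets, chosen by name and 32 in all. They were followed on 9 expression arrays of NIH-3T3 cells, a mouse embryonic fibroblast line of which every sample was made. Of the 32 genes, 29 had a probe set annotated to that gene alone, out of 19938 genes named on the array, and each of the 29 had a single such probe set. The probe set of Cdkn1a is annotated to several genes, and Trp53 and Gdf15 had no named probe set in the annotation used, so these 3 genes are not analysed here. Perp and Pidd1 lay below the level filter (3.86 on the log2 scale, the 40th percentile of gene means) and are given by their values. The other 27 were among the 11963 genes tested.

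Cells received, at 25 nM and with the lipid reagent DharmaFECT 1, an inhibitor of miR-378-3p (3 arrays), a mimic of miR-378-3p (3 arrays) or a RISC-free siRNA as the control (3 arrays), and total RNA was taken 48 hours later. The inhibitor blocks the microRNA, the mimic supplies it, and the control RNA is modified so that it does not enter the silencing complex. All groups carried the transfection reagent and a synthetic RNA, and no inhibitor or mimic of another sequence was among the samples. Effects of the RNA class and of miR-378-3p itself cannot be told apart. The labels call the samples triplicates and do not say whether they were separate cultures, so the p-values speak only of variation among these arrays, part or all of which may be technical.

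p53 is a transcription factor that the ubiquitin ligase Mdm2 keeps at a low level in unstressed cells. DNA damage and other stress release it, and it then switches on genes for cell cycle arrest, repair, metabolism and cell death, as well as Mdm2 itself, which closes a feedback loop. NIH-3T3 cells are known to keep wild-type p53 and to lack the Cdkn2a locus, whose ARF protein restrains Mdm2. The Cdkn2a probe set read 4.15, 4.26 and 4.24 on the inhibitor arrays, 4.32, 4.27 and 4.37 on the mimic arrays and 4.24, 4.26 and 4.29 on the control arrays (log2), without a call in any comparison. A value of this size, above the level filter, does not by itself show that a gene is expressed. All 8 fibroblast markers passed the filter, and limma called 2 of them against the control, Col3a1 lower with the inhibitor (-0.22, adjusted p = 0.0427) and Thy1 higher with the mimic (0.38, adjusted p = 0.00823), while Ptprc, Adgre1, Itgam, Epcam, Cdh1, Krt14, Krt19, Cdh5, Kdr, Tek, Myog and Des of the macrophage, epithelial, endothelial and muscle lists lay below it. The mean level of each of these 4 lists lay between 3.63 and 4.04 on every array, and of their 6 markers above the filter limma called 0 against the control in either comparison (1 unadjusted p under 0.05, that of Cd68 with the mimic).

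Inhibitor 1 and mimic 3 lay at the ends of the first principal component of all genes tested, which held 60.5% of the variance, with scores of 20.9, 9.88 and 13.4 for inhibitor 1 to 3, -9.15, -3.95 and -20.5 for mimic 1 to 3 and -4.38 to -2.78 for the controls. All inhibitor arrays thus lay beyond the other groups, and mimic 2 lay among the controls. Among the 27 genes, inhibitor 1 was the highest inhibitor array for 20 and mimic 3 the lowest mimic array for 19. Inhibitor 2 was the lowest inhibitor array for 20 and mimic 2 the highest mimic array for 21. The share over all genes was not computed. Counts are also given without inhibitor 1 and mimic 3, the ends of that component.

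p53 binds DNA as a tetramer at pairs of a decamer with a C, a pair of A or T bases and a G at its centre, purines before it and pyrimidines after it. To show what such sequence looks like in these genes, the decamer was searched without mismatch in RefSeq promoter windows of 300 bases (GRCm38.p6, 250 before and 50 after a listed start), which were given for 22 of the 29 genes. The motif is its own reverse complement, so a search of the printed strand covers both. Windows were not given for Ddb2, Perp, Rrm2b, Tnfrsf10b, Trp53inp1, Xpc and Zmat3. The decamer occurred in 9 of 29 member windows (31.0%) and in 2745 of 32851 windows of all genes (8.36%). The 9 windows belong to 8 genes, since overlapping windows of Aen hold the same decamer. The stretches that hold it follow, 5′ to 3′ on the strand of the gene, with the decamer in capitals.
Mdm2, chr10:117710910-117710969, minus strand: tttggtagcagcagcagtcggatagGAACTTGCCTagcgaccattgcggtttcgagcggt
Ccng1, chr11:40755437-40755496, minus strand: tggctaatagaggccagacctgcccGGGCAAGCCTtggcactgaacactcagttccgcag
Gadd45a, chr6:67037413-67037472, minus strand: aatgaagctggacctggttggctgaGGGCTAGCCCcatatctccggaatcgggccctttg
Aen, chr7:78895912-78895971, plus strand: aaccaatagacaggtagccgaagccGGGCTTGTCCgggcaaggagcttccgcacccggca
Ei24, chr9:36797310-36797369, minus strand: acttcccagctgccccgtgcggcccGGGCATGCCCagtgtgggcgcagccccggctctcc
Polk, chr13:96519384-96519437, minus strand: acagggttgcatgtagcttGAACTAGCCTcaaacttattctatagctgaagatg
Ppm1d, chr11:85311097-85311156, plus strand: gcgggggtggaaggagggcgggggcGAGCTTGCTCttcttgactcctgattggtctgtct
Sesn1, chr10:41887241-41887300, plus strand: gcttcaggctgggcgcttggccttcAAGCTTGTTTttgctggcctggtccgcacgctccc

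In Aen an imperfect copy follows the decamer directly, and the pair differs from the full site at 3 of 20 bases. Pairs with at most 3 differences and whole centres were found in 188 of all windows (0.57%). Pairs with a changed centre were not counted. Ccng1 holds such a pair, since the bases directly before its decamer depart from the motif only within the centre. The Ei24 decamer lies 10 to 1 bases before the listed start and that of Gadd45a 40 to 31 bases before it. These are matches of letters and not measured binding, and the best-known response elements of some targets, such as those in the first intron of Mdm2, lie outside such windows.

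The inhibitor was first set against the control, which asks what follows when miR-378-3p is blocked. p53 targets were higher in the inhibitor arrays across feedback genes, arrest genes, death receptors and a detoxification enzyme. Of the 27 genes tested, 17 rose and 1 fell (limma, adjusted p below 0.05 over all genes tested), against 11.1% of all genes called higher and 3.76% called lower. The median log2 fold change was 0.40 over the 27 genes and 0.01 over all genes tested. For 20 of the 27 genes every inhibitor array lay above every control array, which was so for 24.9% of all genes, and for 1 gene, Sesn1, every inhibitor array lay below, which was so for 12.8%. A rise of at least 1.5-fold was reached by 6 genes (1.46% of all genes), namely Mdm2, Ccng1, Trp53inp1, Eda2r, Gadd45a and Ephx1. Without inhibitor 1 and mimic 3 the counts were 17 and 1 and the median was 0.35. Calls over all genes moved in that fit, with 831 called lower where the fit of all 9 arrays called 450. Genes called higher numbered 1330 with all 9 arrays. They numbered at most 1918 under the alternatives other than leaving out 1 array, that fit among them, so 11.1% need not be its share. In RNA of whole cultures, a change in the RNA of each cell and a change in the share of cells that carry it cannot be told apart.

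**Figure D1:**
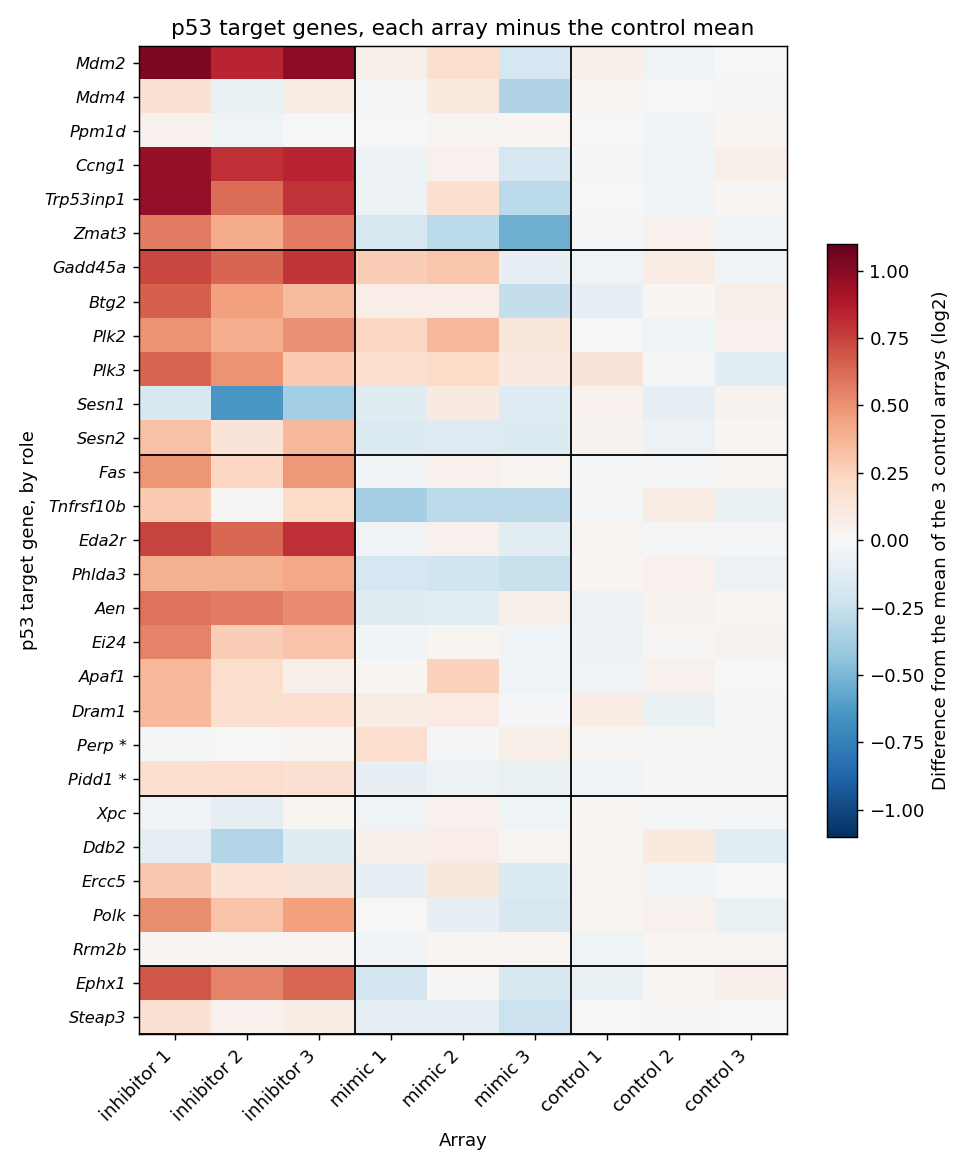
Heat map of the 29 p53 target genes with a named probe set (rows, grouped by role: feedback and regulators, growth arrest, death, DNA repair, detoxification and iron) on the 9 arrays (columns), as the log2 difference from the mean of the 3 control arrays. An asterisk marks the 2 genes below the level filter. The inhibitor columns are red for most genes of the upper 3 groups, and Sesn1 is blue there. The mimic columns are paler, red on all 3 arrays for Plk2, Plk3 and Ddb2. They are blue on all 3 for Zmat3, Phlda3, Tnfrsf10b, Sesn2, Steap3 and Pidd1.

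Among the feedback genes and regulators, 4 of 6 rose, where 11.1% of all genes were called higher. Mdm2 (gene ID 17246), the ubiquitin ligase that marks p53 for destruction, read 7.73, 7.55 and 7.70 on the inhibitor arrays, 6.76, 6.90 and 6.51 on the mimic arrays and 6.76, 6.66 and 6.71 on the control arrays (log2). The inhibitor arrays lay above all the others, while mimic and control arrays overlapped. The log2 fold change against the control was 0.95 ± 0.09 (SE; limma, adjusted p = 0.000186), a 1.93-fold rise.

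Ccng1 (gene ID 12450) encodes cyclin G1, a p53 target that helps to activate Mdm2. It read 9.91, 9.75 and 9.78 on the inhibitor arrays, 8.89, 8.997 and 8.76 on the mimic arrays and 8.93, 8.90 and 9.01 on the control arrays. Again only the inhibitor arrays stood apart, by 0.87 ± 0.07 against the control (SE; limma, adjusted p = 7.36e-05).

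Trp53inp1, a nuclear protein that promotes p53 activity, read 8.23, 7.88 and 8.06 on the inhibitor arrays, 7.21, 7.45 and 6.97 on the mimic arrays and 7.27, 7.24 and 7.29 on the control arrays. Its inhibitor arrays also lay above all others, and its mimic arrays were spread widest of the 27 genes (SD 0.24) with the controls inside their range. The rise with the inhibitor was 0.79 ± 0.11 (SE; limma, adjusted p = 0.00162).

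Zmat3, which encodes an RNA-binding zinc finger protein, separated all 3 groups. It read 5.48, 5.33 and 5.49 on the inhibitor arrays, 4.74, 4.63 and 4.38 on the mimic arrays and 4.90, 4.97 and 4.89 on the control arrays. It rose with the inhibitor by 0.51 ± 0.09 (SE; limma, adjusted p = 0.00341), and the mimic arrays lay below the controls without overlap.

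The other regulators stayed close to the control. Mdm4, the relative of Mdm2 that masks the activation domain of p53, averaged 6.43 ± 0.12 in the inhibitor group, 6.30 ± 0.22 in the mimic group and 6.38 ± 0.02 in the control group (log2, SD, n = 3). Its log2 fold change with the inhibitor had a 95% interval of -0.17 to 0.28, and its sign turned after quantile normalization. Ppm1d, which encodes the phosphatase WIP1 that switches p53 signalling off, averaged 6.11 ± 0.05, 6.13 ± 0.02 and 6.11 ± 0.03 in the inhibitor, mimic and control groups, with an interval of -0.10 to 0.10 for the inhibitor. Mdm2 and Ppm1d, both known as negative regulators that p53 induces, thus had intervals against the control that did not overlap, since that of Mdm2 ran from 0.75 to 1.15.

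Growth arrest and stress genes held 5 rises and the only fall, where 11.1% of all genes were called higher and 3.76% lower. Gadd45a, a growth arrest and DNA damage protein, read 6.10, 6.004 and 6.15 on the inhibitor arrays, 5.63, 5.67 and 5.27 on the mimic arrays and 5.31, 5.44 and 5.33 on the control arrays. The inhibitor arrays were highest, and mimic 1 and mimic 2 lay above the controls where mimic 3 lay below them. It rose with the inhibitor by 0.72 ± 0.10 (SE; limma, adjusted p = 0.00106).

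Btg2, an antiproliferative cofactor of mRNA deadenylation, averaged 6.37 ± 0.16 in the inhibitor group, 5.84 ± 0.19 in the mimic group and 5.88 ± 0.08 in the control group (log2, SD, n = 3). It rose by 0.49 ± 0.10 with the inhibitor (SE; limma, adjusted p = 0.0107). The call ended without control 1 (adjusted p = 0.0516).

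The polo-like kinases Plk2 and Plk3, which respond to stress and growth signals, rose by 0.47 each. Plk2 read 9.07, 8.97 and 9.08 on the inhibitor arrays, 8.80, 8.93 and 8.69 on the mimic arrays and 8.57, 8.53 and 8.61 on the control arrays, so that the 3 groups did not overlap and the mimic lay between the others. Plk3 averaged 5.41 ± 0.18 in the inhibitor group, 5.10 ± 0.06 in the mimic group and 4.93 ± 0.13 in the control group. Limma's adjusted p against the control was 0.00124 for Plk2 and 0.00689 for Plk3.

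The sestrins went opposite ways. Both encode stress proteins that restrain growth signalling through the mTOR kinase. Sesn2 read 5.45, 5.27 and 5.48 on the inhibitor arrays, 4.97, 4.99 and 4.97 on the mimic arrays and 5.17, 5.06 and 5.15 on the control arrays, and rose with the inhibitor by 0.27 ± 0.06 (SE; limma, adjusted p = 0.0142). Sesn1 read 6.99, 6.53 and 6.79 on the inhibitor arrays, 7.04, 7.26 and 7.03 on the mimic arrays and 7.22, 7.08 and 7.20 on the control arrays.

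All inhibitor arrays lay below the controls for Sesn1, and the value fell by 0.39 ± 0.11 (SE; limma, adjusted p = 0.0341). The spread of its inhibitor arrays (SD 0.23) was the widest of the 27 genes in that group. Its call held in 3 of the 9 fits that left an array out and reached an adjusted p of 0.116, while that of Sesn2 held in 6 of 9, and both kept their sign in these fits.

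**Figure D2:**
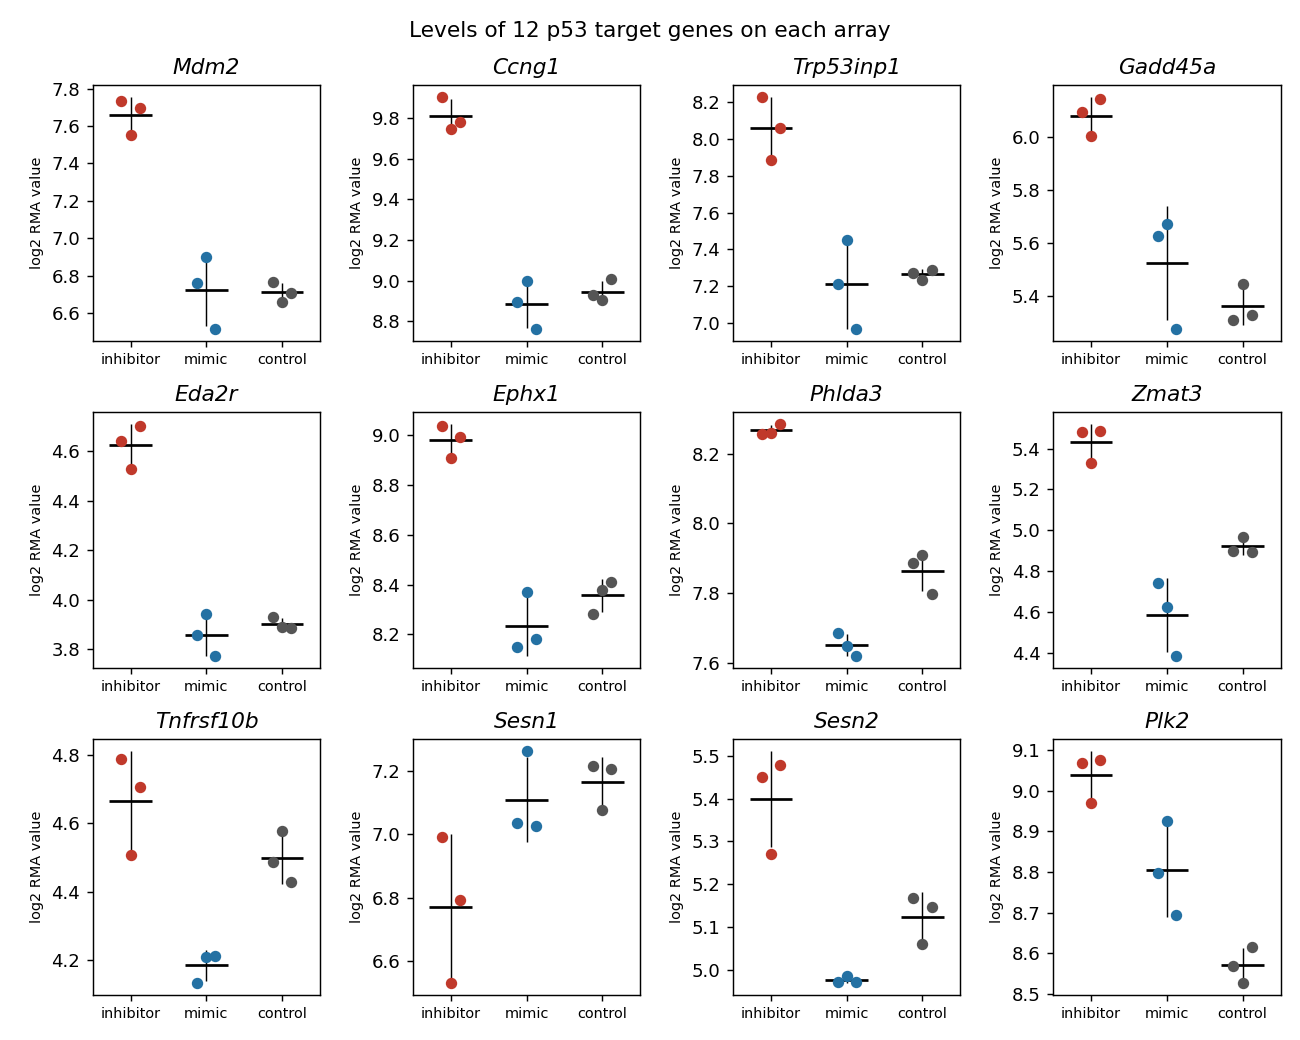
Log2 RMA values of 12 p53 target genes on each array, in the inhibitor (red), mimic (blue) and control (grey) groups, with the mean of 3 arrays as a horizontal line and the SD to either side as a vertical line. The vertical axes do not start at 0. The inhibitor arrays lie above the controls for every gene shown except Sesn1, where they lie below, and Tnfrsf10b, where the groups overlap.

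Of 8 death receptor and death effector genes tested, 6 rose and 0 fell with the inhibitor, against 11.1% and 3.76% of all genes. Eda2r, a receptor of the tumour necrosis factor family, read 4.64, 4.53 and 4.70 on the inhibitor arrays, 3.86, 3.94 and 3.77 on the mimic arrays and 3.93, 3.89 and 3.88 on the control arrays. The mimic and control values lie at the level filter, so its rise of 0.72 ± 0.06 (SE; limma, adjusted p = 9.77e-05) starts from near the low end of the arrays. Aen, a nuclease that acts in apoptosis, averaged 6.46 ± 0.04 in the inhibitor group, 5.84 ± 0.11 in the mimic group and 5.90 ± 0.06 in the control group (log2, SD, n = 3), and rose by 0.56.

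Phlda3, a membrane-binding protein that competes with the survival kinase Akt, varied little within each group. It read 8.26, 8.26 and 8.29 on the inhibitor arrays, 7.68, 7.65 and 7.62 on the mimic arrays and 7.89, 7.91 and 7.80 on the control arrays. The groups did not overlap, with the inhibitor above and the mimic below the control. The rise with the inhibitor was 0.40 ± 0.05 (SE; limma, adjusted p = 0.00062).

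Fas, the death receptor of Fas ligand, averaged 4.55 ± 0.15 in the inhibitor group, 4.17 ± 0.04 in the mimic group and 4.16 ± 0.03 in the control group, and rose by 0.40. Ei24, an endoplasmic reticulum protein linked to autophagy, averaged 7.06 ± 0.15, 6.67 ± 0.03 and 6.69 ± 0.05 in the inhibitor, mimic and control groups and rose by 0.38. Dram1, a lysosomal protein of the same process, rose least of the called genes, by 0.24 ± 0.07 (SE; limma, adjusted p = 0.0339), and its call held in 4 of the 9 fits that left an array out.

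Apaf1, the scaffold of the apoptosome, averaged 6.003 ± 0.15 in the inhibitor group, 5.88 ± 0.15 in the mimic group and 5.80 ± 0.04 in the control group and was not called against the control (limma, adjusted p = 0.158). Tnfrsf10b, the mouse receptor of the death ligand TRAIL, read 4.79, 4.51 and 4.71 on the inhibitor arrays, 4.13, 4.21 and 4.21 on the mimic arrays and 4.49, 4.58 and 4.43 on the control arrays. Its inhibitor and control arrays overlapped, and the mimic arrays lay below both.

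Below the level filter, Pidd1, a death domain protein that activates caspase 2, read 3.90, 3.92 and 3.89 on the inhibitor arrays, 3.63, 3.67 and 3.65 on the mimic arrays and 3.69, 3.74 and 3.74 on the control arrays. With no filter it was called higher in the inhibitor group (limma, adjusted p = 0.00632). Perp, a membrane protein of cell junctions, read 3.66, 3.66 and 3.69 on the inhibitor arrays, 3.86, 3.65 and 3.74 on the mimic arrays and 3.68, 3.68 and 3.64 on the control arrays, and the groups overlapped.

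Of 5 DNA repair and nucleotide supply genes tested, Polk alone rose with the inhibitor, where 11.1% of all genes were called higher. The median of the 5 was 0.02. Polk, a polymerase that copies past damaged bases, averaged 4.95 ± 0.10 in the inhibitor group, 4.44 ± 0.09 in the mimic group and 4.53 ± 0.07 in the control group (log2, SD, n = 3), and rose by 0.43 ± 0.07 (SE; limma, adjusted p = 0.00288). Xpc and Ddb2 recognise bulky lesions and Ercc5 cuts beside them in nucleotide excision repair. Xpc averaged 4.75 ± 0.06, 4.78 ± 0.05 and 4.79 ± 0.02 in the inhibitor, mimic and control groups, with a 95% interval of -0.15 to 0.07 for the inhibitor against the control.

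Ddb2, a p53 target best known from human cells, averaged 4.27 ± 0.11 in the inhibitor group, 4.51 ± 0.02 in the mimic group and 4.45 ± 0.12 in the control group and was not called against the control (limma, adjusted p = 0.114). Ercc5 averaged 5.95 ± 0.09, 5.72 ± 0.14 and 5.76 ± 0.03 in the same order (adjusted p = 0.109 against the control). Rrm2b, the ribonucleotide reductase subunit that p53 induces, gave the same value, 4.22, on 6 of the 9 arrays, and its interval against the control was -0.08 to 0.12.

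Ephx1 and Steap3 are linked to metabolism. Ephx1, a microsomal epoxide hydrolase, read 9.04, 8.91 and 8.99 on the inhibitor arrays, 8.15, 8.37 and 8.18 on the mimic arrays and 8.28, 8.38 and 8.41 on the control arrays. The inhibitor arrays stood above all others, by 0.62 ± 0.07 against the control (SE; limma, adjusted p = 0.000394). Steap3, an endosomal iron reductase, averaged 8.78 ± 0.06 in the inhibitor group, 8.53 ± 0.08 in the mimic group and 8.68 ± 0.01 in the control group, and its change of 0.10 was not called (limma, adjusted p = 0.266).

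The mimic was then set against the control, which asks what follows when miR-378-3p is supplied. Few of the 27 genes moved. Phlda3 fell by 0.21 ± 0.05 (SE; limma, adjusted p = 0.039) and Tnfrsf10b by 0.31 ± 0.07 (SE; limma, adjusted p = 0.0468), and 0 genes rose. An unadjusted p of limma under 0.05 was found for 6 genes. Phlda3, Tnfrsf10b, Zmat3, Sesn2 and Steap3 were lower there and Plk2 was higher. The share of all genes with such a p was not computed. Of all genes, 1.1% were called higher and 2.45% lower, 3.55% in all. The median log2 fold change was -0.04 over the 27 genes and -0.01 over all genes. The mimic arrays lay below the controls without overlap for 5 genes (12.7% of all genes) and above them for 1, Plk2 (8.67% of all genes).

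These mimic calls were sensitive to single arrays. That of Phlda3 held in 1 of the 9 fits that left an array out and that of Tnfrsf10b in 3, with adjusted p of up to 0.16 and 0.178 and both values below 0 throughout. The Phlda3 call was also lost under quantile normalization, median centring, a fit of 6 arrays and a moderation with trend, and that of Tnfrsf10b with no level filter, with the filter at the 20th percentile and under median centring. The mimic values of Tnfrsf10b lie near the low end of the arrays, where RMA compresses differences. Zmat3, at -0.34 ± 0.09 (SE; limma, adjusted p = 0.0618), and Plk2, at 0.24 ± 0.06 (adjusted p = 0.0802), lay just outside the threshold. Without inhibitor 1 and mimic 3, Plk2 (0.29) and Gadd45a (0.29) were called higher and Zmat3 (-0.24), Phlda3 and Tnfrsf10b lower (limma, adjusted p of 0.0152, 0.019, 0.0451, 0.0397 and 0.02). That fit called 484 of all genes tested higher, where the fit of all 9 arrays called 132. Genes called lower numbered 293 with all 9 arrays and at most 439 under the alternatives other than leaving out 1 array. Mdm2, Ccng1, Eda2r and Fas, all higher with the inhibitor, had mimic values of 0.01, -0.06, -0.04 and 0.02, with 95% intervals within -0.22 to 0.21.

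**Figure D3:**
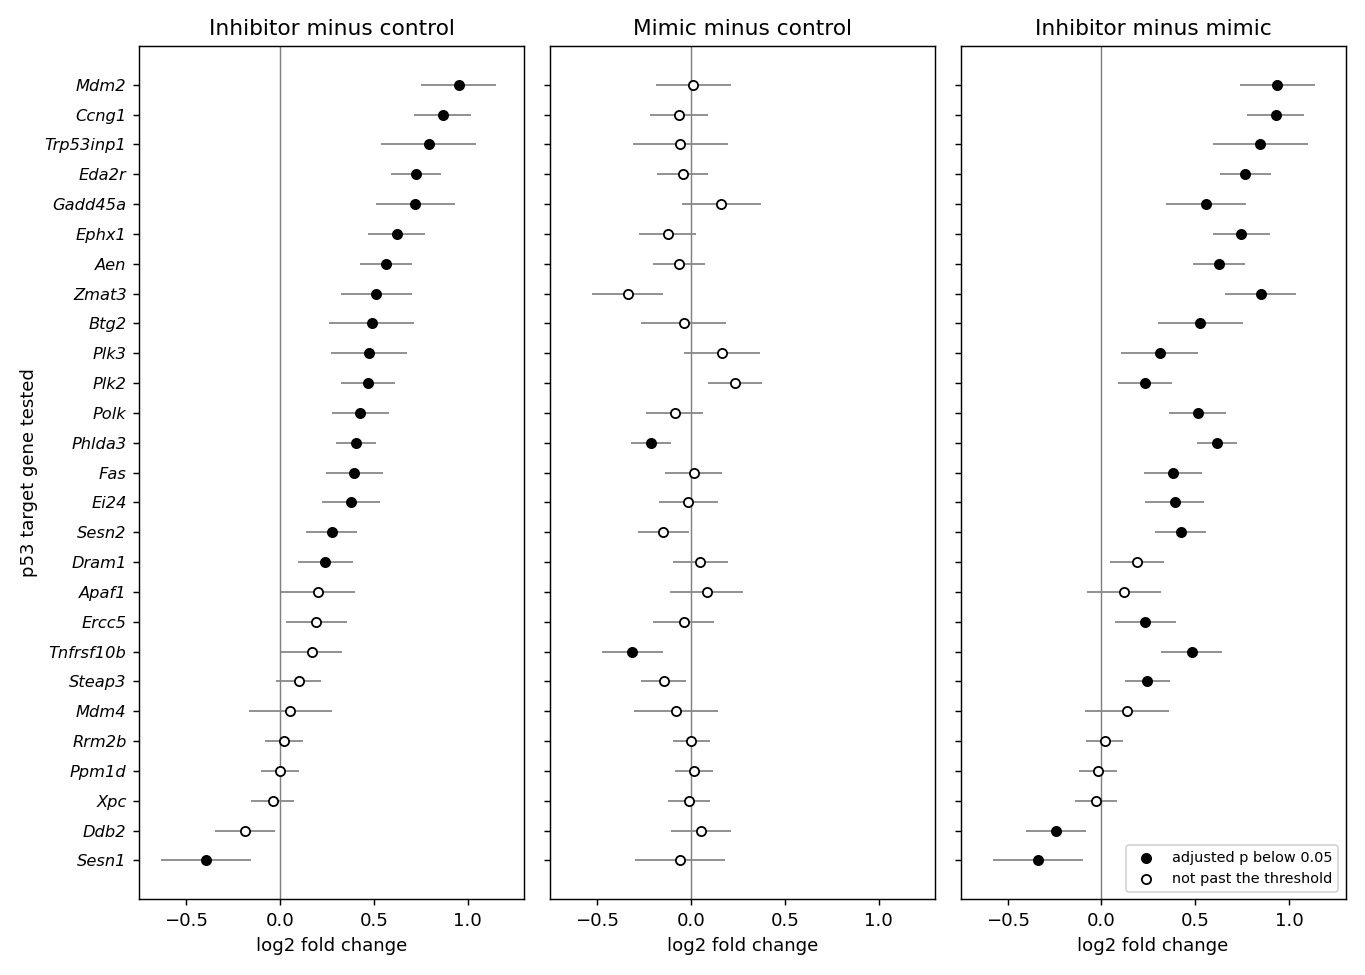
Log2 fold changes (points) with 95% intervals of limma (lines) of the 27 p53 target genes tested, ordered by the inhibitor against the control, in the 3 comparisons. Filled points passed an adjusted p of 0.05: 17 higher and 1 lower for the inhibitor against the control, 2 lower for the mimic against the control, and 19 higher and 2 lower for the inhibitor against the mimic.

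Set directly against the mimic, the inhibitor gave higher values for 19 genes and lower values for 2, against 19.9% and 6.91% of all genes, with a median of 0.39 over the 27 genes and 0.02 over all genes. This comparison shares its inhibitor arrays with the first and its mimic arrays with the other, so the 3 are not independent. The largest differences were those of Mdm2 (0.94), Ccng1 (0.93), Zmat3 and Trp53inp1 (0.85 each), Eda2r (0.77) and Ephx1 (0.74), each with a limma adjusted p of at most 0.000552. A difference of at least 1.5-fold was found for 8 genes (3.11% of all genes), which adds Aen (0.63) and Phlda3 (0.62) to these 6. The arrays of the groups did not overlap for 20 genes that were higher and 2 that were lower with the inhibitor, against 25.7% and 12.9% of all genes. Without inhibitor 1 and mimic 3 the counts of called genes were 16 and 2.

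Some genes were called between inhibitor and mimic but not between inhibitor and control. Tnfrsf10b was higher by 0.48 ± 0.07 (SE; limma, adjusted p = 0.00111), Steap3 by 0.24 ± 0.05 (adjusted p = 0.00754) and Ercc5 by 0.23 ± 0.07 (adjusted p = 0.039), and Ddb2 lay lower, at -0.24 ± 0.07 (adjusted p = 0.0314). The call of Ercc5 held in 1 of the 9 fits that left an array out and that of Ddb2 in 5. For Dram1 the reverse was true, with a difference of 0.19 from the mimic (limma, adjusted p = 0.0565). Plk2 and Plk3 were higher than with the mimic by 0.23 and 0.31, calls that ended without inhibitor 1 and mimic 3 (adjusted p = 0.0921 and 0.153).

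**Figure D4:**
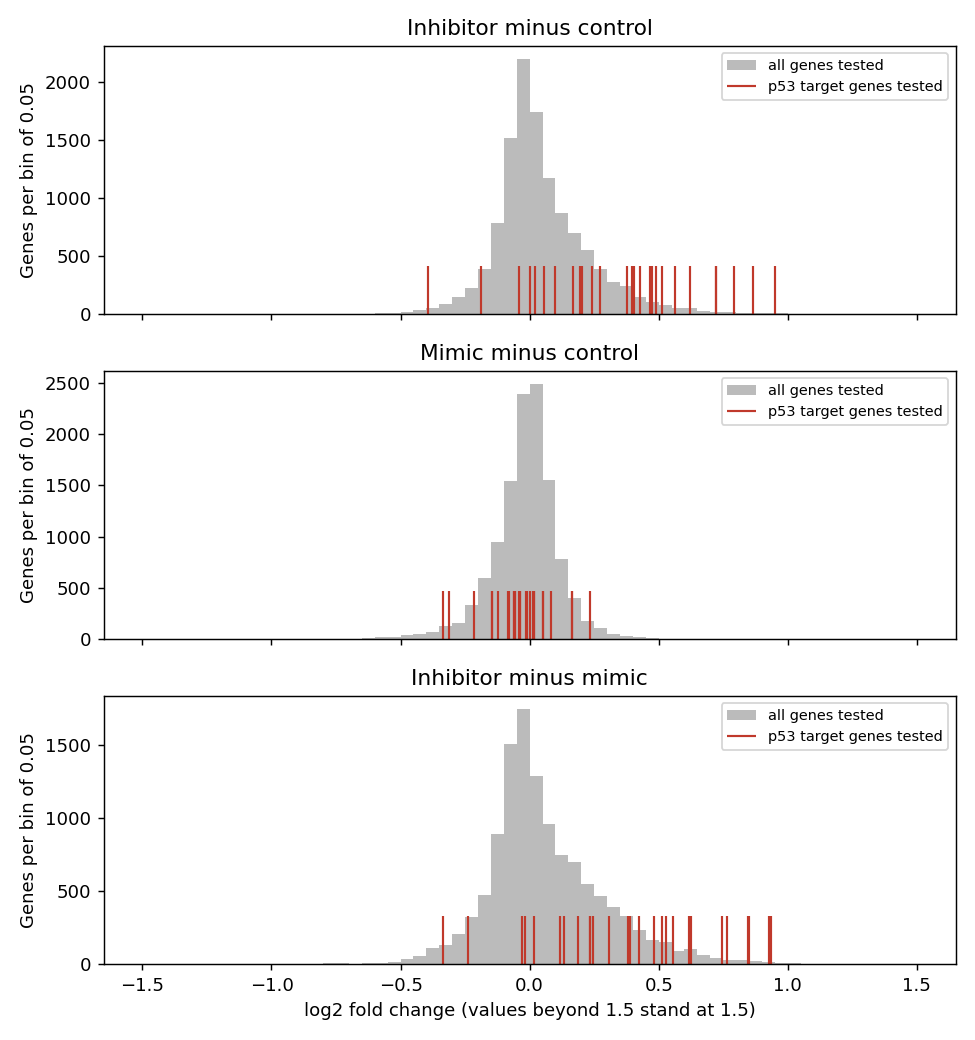
Histograms of the log2 fold changes of all 11963 genes tested (grey, genes per bin of 0.05, with values beyond 1.5 in either direction placed at 1.5) and of the 27 p53 target genes (red lines, whose height carries no value) in the 3 comparisons. The red lines have medians of 0.40 for the inhibitor against the control, -0.04 for the mimic against the control and 0.39 for the inhibitor against the mimic, where all genes have medians of 0.01, -0.01 and 0.02.

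Genes of the pathway outside the list were looked at in the same fit. Of 24 further p53 targets tested, 5 rose with the inhibitor and 1 fell, 20.8% called higher where all genes had 11.1%. Psrc1, a spindle protein, read 6.91, 6.84 and 6.96 on the inhibitor arrays, 5.75, 5.88 and 5.76 on the mimic arrays and 6.41, 6.28 and 6.34 on the control arrays. It rose with the inhibitor by 0.56 ± 0.06 (limma, SE, adjusted p = 0.000315) and fell with the mimic by 0.55 ± 0.06 (adjusted p = 0.0014), so that the 3 groups were apart.

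Gtse1, a mitotic protein that restrains p53, rose with the inhibitor by 0.46, the repressor gene Bcl6 by 0.44, Zfp365 by 0.36 and the nuclear body gene Pml by 0.19, while Gpx1, a glutathione peroxidase, fell by 0.39 (limma, adjusted p of at most 0.0197). With the mimic, Prkab2, a subunit of the energy sensor AMPK, rose by 0.27, and besides Psrc1 both Gpx1 and the spindle gene Ckap2 fell, by 0.33 and 0.28 (adjusted p of at most 0.0351). The classic death targets Bbc3 and Pmaip1, which encode PUMA and NOXA, were at -0.04 and 0.14 with the inhibitor and were not called (adjusted p = 0.769 and 0.176). The median of the 24 was 0.06 with the inhibitor and -0.03 with the mimic.

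Of 28 upstream regulators of p53 tested, 6 rose with the inhibitor (21.4%) and 0 fell, against 11.1% and 3.76% of all genes. Hipk2, a kinase that phosphorylates p53, read 6.51, 6.58 and 6.43 on the inhibitor arrays, 5.68, 5.82 and 5.54 on the mimic arrays and 5.83, 6.07 and 5.81 on the control arrays, a rise of 0.60 ± 0.09 with the inhibitor (SE; limma, adjusted p = 0.00154). The inhibitor arrays lay above all the others, and mimic and control arrays overlapped. Usp7, which removes ubiquitin from both Mdm2 and p53, rose by 0.54, the Mdm2-binding gene Mtbp by 0.51, the checkpoint kinase gene Chek1 by 0.44, Usp10, which removes ubiquitin from p53, by 0.34 and the deacetylase gene Sirt1 by 0.32 (limma, adjusted p of at most 0.0251). The p53 relatives Trp63 and Trp73 were at -0.02 and 0.01. Their group means, 4.21 to 4.23 and 3.83 to 3.91 (log2), lie near the low end of the arrays, so these values say little about their regulation. With the mimic 0 of the 28 were called, and the medians were 0.07 with the inhibitor and -0.02 with the mimic. With the mimic 4 had an unadjusted p of limma under 0.05, not all in the same direction, and the share of all genes with such a p was not computed.

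Across the promoter windows shown above, the decamer was present for 6 of the 15 genes that rose with the inhibitor and have a window, for Sesn1, which fell, and for Ppm1d among the 5 not called. A gene counts here if any of its windows holds the decamer. Polk and Sesn1 each have another window without it. The share per gene over all genes was not computed. Genes that rose without the decamer in their window included Eda2r, Ephx1, Btg2 and Phlda3. This is a description of these windows alone.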

How the data were processed

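The samples were RNA of NIH-3T3 cultures on whole-transcript arrays, labelled with biotin per the labels' protocols. The values deposited by the authors are on the log2 scale, and the submitters' processing notes name Partek 6.5 and RMA. RMA as commonly run makes the arrays share quantiles, which can hide a shift of most genes, and it compresses low values. The deposited arrays did not share quantiles, and their medians ran from 3.94 (inhibitor 1) to 4.03 (mimic 3). The 75th percentile was 5.76, 5.67 and 5.69 on inhibitor 1 to 3 and 5.63, 5.66 and 5.55 on mimic 1 to 3. On the controls it was 5.64 to 5.65, below every inhibitor array. The cause of these differences was not tested. Which genome build the probe sets follow was not stated in the sources. Values ran from 2.64 to 12.5 over 28853 probe sets, of which 21789 were annotated to 1 gene, 1621 to several and 5443 to none. A gene with several probe sets was read by that of highest mean. Genes above the 40th percentile of means were tested with limma 3.58.1 (R 4.3.3) in 1 model of all 9 arrays, with 6 residual degrees of freedom and 4.38 more from the moderation. Benjamini-Hochberg adjustment ran over 11963 genes at a threshold of 0.05, and every adjusted p is limma's. Intervals are 95% and unadjusted. The fit was tested on simulated data. The genes, the lists, the naming rule (every p53 target gene, each called gene of the other lists, up to 8 per list and comparison, and Cdkn2a) and the alternatives were chosen with earlier results of these data known. Bbc3, Pmaip1, Trp63 and Trp73 were named outside that rule and were not called in any comparison. At most 3.58% of values were identical between any pair of arrays. The labels do not say whether replicate numbers pair the samples, and the main model did not use them. Alternatives were the filter, scaling, 6-array fits, a replicate block, trend, probe set averaging, a 1.5-fold limit and leaving out arrays. The number of arrays limits the precision. Figures used matplotlib 3.10.9 (Python 3.11.15).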

Additional observations from a re-analysis of the deposited data

Results flagged for a closer look

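Phlda3 was called in opposite directions against the control, higher with the inhibitor (0.40) and lower with the mimic (-0.21), and the direct test of inhibitor minus mimic gave 0.62 ± 0.05 on the log2 scale (SE; limma, adjusted p = 3.7e-05). It was the only one of the 27 p53 target genes with calls in both directions. The direct difference stayed between 0.60 and 0.63 in the 9 fits that left an array out, and the mimic call held in 1 of these. The gene was flagged because of these calls, and the direct difference is made of the same changes against the control. It is thus no separate support for the mimic call. The mimic call was also lost after quantile normalization (adjusted p = 0.0795), after median centring (0.0612), in the fit of 6 arrays (0.0854) and with trend (0.0853).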

How the results depend on the processing

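The count of p53 target genes higher with the inhibitor than with the control (17) lay between 15 and 18 in the fits that left out an array and between 16 and 18 under the other alternatives except a limit of 1.5-fold, which kept 6. For the inhibitor against the mimic (19) the ranges were 16 to 19 and 16 to 20, and 8 at 1.5-fold. The counts of lower genes were small and moved. For the inhibitor against the control the 1 fall, Sesn1, ended (0) with no level filter, with the filter at the 20th percentile, after median centring, with the replicate block and at 1.5-fold, and the count ranged from 0 to 1 with arrays left out. For the inhibitor against the mimic (2) it was 1 with no filter, with the 20th percentile and in fits of 6 arrays, 0 after median centring, with the replicate block and at 1.5-fold, 3 after quantile normalization, which added Ppm1d (-0.14, adjusted p = 0.0452), and 0 to 2 with arrays left out. For the mimic against the control, the falls (2) were 1 with no filter, with the 20th percentile, in fits of 6 arrays and with trend, 0 after median centring, with the replicate block and at 1.5-fold, and 0 to 2 with arrays left out, and the rises (0) were 1 (Plk2) after quantile normalization, 2 without inhibitor 1 and mimic 3, and 0 to 2 with arrays left out. After quantile normalization the falls were again 2, with Zmat3 in place of Phlda3. The cause of these changes was not tested, beyond the number of genes or arrays that each alternative leaves. With the replicate block, 17 genes were called higher for the inhibitor against the control and 19 against the mimic, and in the 19 Dram1 (adjusted p = 0.0408) took the place of Ercc5 (adjusted p = 0.0539). The block also ended the mimic calls of Phlda3 (adjusted p = 0.0834) and Tnfrsf10b (0.0974). Same-numbered arrays correlated between -0.59 and 0.22 in their deviations from the group means. With 3 arrays per group this cannot show whether the numbers mark a shared batch, and the labels do not say. No called log2 fold change of a p53 target gene changed sign under these alternatives. Over all genes, calls with arrays left out ran from 742 to 2067 higher and 232 to 723 lower for the inhibitor (1330 and 450 with all arrays), 45 to 300 and 88 to 395 for the mimic (132 and 293), and 1637 to 2874 and 543 to 1005 for inhibitor against mimic (2377 and 827). Quantile normalization turned the split of calls to 1269 higher and 1022 lower for the inhibitor, 335 and 439 for the mimic, and 2028 and 1670 for inhibitor against mimic. RMA signal near the low end of the scale limits Eda2r, Fas, Tnfrsf10b, Polk, Ddb2, Rrm2b, Perp and Pidd1, and outside the list Bbc3, Pmaip1, Trp63 and Trp73.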
